A study of Mus musculus with 21 samples.

Results

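Rhox5, Rhox6, Rhox9, Dppa3, Tfap2c, Prdm14 and Prdm1 are 7 genes that mouse germ cell precursors or placenta are known to use, described here in mouse embryonic stem cells (ESCs) and in the embryoid bodies that such cells form when they are left to differentiate as aggregates. They were picked by name because several of them were higher in knockout than in wild type embryoid bodies at day 3. All 7 were among the 24458 genes of the expression table, and all 7 had a mean of at least 1 FPKM over its 12 libraries, as had 12472 genes in all. FPKM counts the fragments of a transcript relative to its length in kilobases and to the size of the library, so levels can be compared between genes per unit of length. The knockout group lacked Cxxc5, also named Rinf, and the control group was wild type for it. Both consisted of ESC lines of mixed 129/C57BL/6 strain grown in serum with LIF, and carried no other allele or agent named in the labels of these libraries. Differentiation was started in hanging drops, and RNA was taken at days 0, 3 and 6. Each genotype had 2 libraries on each day, which the labels trace to 2 independent ESC lines per genotype. Spread between libraries therefore includes differences between lines, a genotype rests on very few lines, and the sources used here do not say which part of Cxxc5 was deleted. A second table held ESCs that had been taken off feeder cells, and 5 ChIP-seq and input samples of the series were not analysed here.

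The Rhox genes are a cluster of homeobox transcription factor genes on the X chromosome, known for expression in testis, ovary and placenta and for silencing by DNA methylation in most somatic cells. Mouse primordial germ cells, the precursors of sperm and egg, arise from epiblast cells under BMP and WNT signals, and the transcription factors Prdm1, Prdm14 and Tfap2c are together needed to set up their programme. Dppa3, also named Stella, is switched on as these precursors form and protects DNA methylation in the early embryo. Several of these factors also belong to other cells: Dppa3 and Prdm14 are expressed in naive pluripotent stem cells, and Tfap2c, Rhox6 and Rhox9 are expressed in trophoblast, the lineage of the placenta. A level in a whole embryoid body does not say which cells held the RNA. In these bulk samples, fewer cells of a type and less RNA per cell cannot be told apart.

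Proteins with a CXXC zinc finger, such as Cxxc5, bind CpG that is free of methylation, so CpG positions in the promoters are shown where the RefSeq promoter table (GRCm38.p6) held the gene. It held 2 of the 7, Rhox5 and Prdm1. The 250 bases before a transcript start of each are given on the strand of the gene, from 5′ to 3′, with CpG dinucleotides in capitals. For Rhox5 this start is the annotated start of the gene. For Prdm1, on the minus strand, the table used a start at 44458748, which lies 69810 bases inside the gene as annotated in RefSeq, so the Prdm1 window belongs to an internal transcript start and not to the outermost one at 44528558.
Rhox5 promoter, chrX:37754358-37754607, plus strand: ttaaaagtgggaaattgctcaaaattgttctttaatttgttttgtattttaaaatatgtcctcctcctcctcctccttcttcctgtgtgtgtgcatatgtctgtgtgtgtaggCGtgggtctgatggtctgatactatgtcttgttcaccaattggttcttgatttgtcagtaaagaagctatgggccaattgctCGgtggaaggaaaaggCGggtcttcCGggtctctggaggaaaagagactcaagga
Prdm1 promoter of the internal start, chr10:44458749-44458998, minus strand: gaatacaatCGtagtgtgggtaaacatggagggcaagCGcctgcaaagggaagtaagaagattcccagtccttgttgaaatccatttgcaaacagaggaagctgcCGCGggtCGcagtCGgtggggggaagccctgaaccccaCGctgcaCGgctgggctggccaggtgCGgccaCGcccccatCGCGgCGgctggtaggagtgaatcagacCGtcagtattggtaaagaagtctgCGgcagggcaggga
The Rhox5 window held 4 CpGs and had a GC content of 42.8%, and the Prdm1 window held 15 CpGs and had a GC content of 59.2%. Over the 32817 promoters of the table the median was 6 CpGs in a window of this length, and 44.4% of promoters held at most as many as Rhox5, while 27.3% held at least as many as Prdm1. The TFAP2 motif GCCNNNGGC was found in neither window on either strand, against 13.7% of all promoters, and the octamer ATGCAAAT of POU factors in neither, against 1.60%. These are letters in a window and no measurement of binding or methylation.

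Rhox5 lay on chromosome X from 37754608 to 37808878 and Rhox6 from 37827055 to 37829857, both on the plus strand, with Rhox9 from 37899097 to 37901770 on the minus strand (GRCm38, the assembly named mm10 in the labels). Dppa3 lay on chromosome 6 from 122626424 to 122630271, Tfap2c on chromosome 2 from 172545678 to 172558622, Prdm14 on chromosome 1 from 13113428 to 13127163 and Prdm1 on chromosome 10 from 44437174 to 44528558. The values count fragments over whole transcripts of these genes. Rhox6 and Rhox9 are close paralogues. Their GENCODE M21 transcripts were 91.95% identical over 882 aligned bases, and 109 of the 936 windows of 75 bases in Rhox6, or 11.65%, also occurred unchanged in Rhox9. With up to 2 mismatches 25.64% of the Rhox6 windows and 9.482% of the Rhox9 windows were shared. The Rhox9 windows came from 2 transcripts, of 2422 and 882 bases, so the share of the shorter one alone may be higher. Most windows of either gene could therefore be read apart at the length of these single-end reads. How shared reads were counted is not known here, and how far this shifts each of the 2 levels was not measured. Dppa3 shared 3.794% of its windows unchanged, and 39.05% with up to 2 mismatches, with the pseudogene Dppa3-ps and the predicted genes Gm15620 and Gm47576. Rhox5, Tfap2c, Prdm14 and Prdm1 shared 0 windows with another gene.

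Cxxc5 itself was lower in all 6 knockout libraries, with 5.05 to 11.9 FPKM, than in any wild type library, with 25.1 to 52.3 FPKM. Depth, estimated from the smallest values of genes with a single long transcript, ran from 15.3 to 32.8 M reads per library. Replicates of a group correlated at 0.966 to 0.985 across the tested genes, which are not independent, and shared 0 identical values above 0. Y-linked Eif2s3y, Uty and Ddx3y were lower in knockout than in wild type libraries on every day: Eif2s3y, the highest of them, had 1.40 to 3.92 FPKM in knockout and 9.40 to 20.4 FPKM in wild type. The part of this difference between the lines in the results below was not tested.

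Of the 3 Rhox genes, Rhox5 had the highest level and fell with time in both genotypes, while Rhox6 and Rhox9 had their highest levels at day 3 in knockout and at day 0 in wild type. Rhox5, the founding gene of the cluster, had 137 and 148 FPKM in knockout replicates 1 and 2 at day 0, against 70.1 and 105 FPKM in wild type replicates 1 and 2. At day 3 it had 82.1 and 104 FPKM in knockout and 24.2 and 36.7 FPKM in wild type, and at day 6 it had 40.6 and 19.2 FPKM in knockout and 15.7 and 5.95 FPKM in wild type. The genotypes did not overlap on any day, and at day 6 the lower knockout library lay 1.22 times above the higher wild type library. By day 3 the mean was at 65.3% of its day 0 level in knockout and 34.8% in wild type.

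Rhox6, a homeobox gene of placenta and germ cells, had 14.5 and 19.7 FPKM in knockout and 5.36 and 7.61 FPKM in wild type at day 0. At day 3 the knockout libraries stood at 19.8 and 32.5 FPKM and the wild type libraries at 3.19 and 2.35 FPKM. At day 6 the values were 11.67 and 11.66 FPKM in knockout, against 2.66 and 0.351 FPKM in wild type. Both knockout libraries were above both wild type libraries on each day, by 6.21 times between the nearest libraries at day 3. The lowest value, in wild type replicate 2 at day 6, rests on an estimated 9.82 reads.

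Rhox9 followed the same course. It had 16.9 and 20.02 FPKM in knockout and 7.46 and 7.79 FPKM in wild type at day 0, and 26.7 and 41.4 FPKM in knockout and 4.50 and 4.23 FPKM in wild type at day 3. At day 6 it had 15.01 and 16.4 FPKM in knockout and 3.10 and 1.32 FPKM in wild type, the lowest value resting on an estimated 60.4 reads. Mean Rhox9 at day 3 was 184% of its day 0 level in knockout and 57.2% in wild type, and mean Rhox6 was 153% and 42.8%. The ratio of Rhox9 to Rhox6 lay between 1.01 and 1.80 in 11 libraries and was 3.76 in wild type replicate 2 at day 6, the library with the lowest Rhox6. Rhox5 and Rhox9 changed in unequal proportion. The ratio of Rhox5 to Rhox9 was 8.09 and 7.41 in knockout against 9.40 and 13.5 in wild type at day 0, 3.07 and 2.52 against 5.38 and 8.69 at day 3, and 2.70 and 1.17 against 5.07 and 4.51 at day 6. On each day both knockout ratios were below both wild type ratios, a description for which no test was run.

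**Figure D1:**
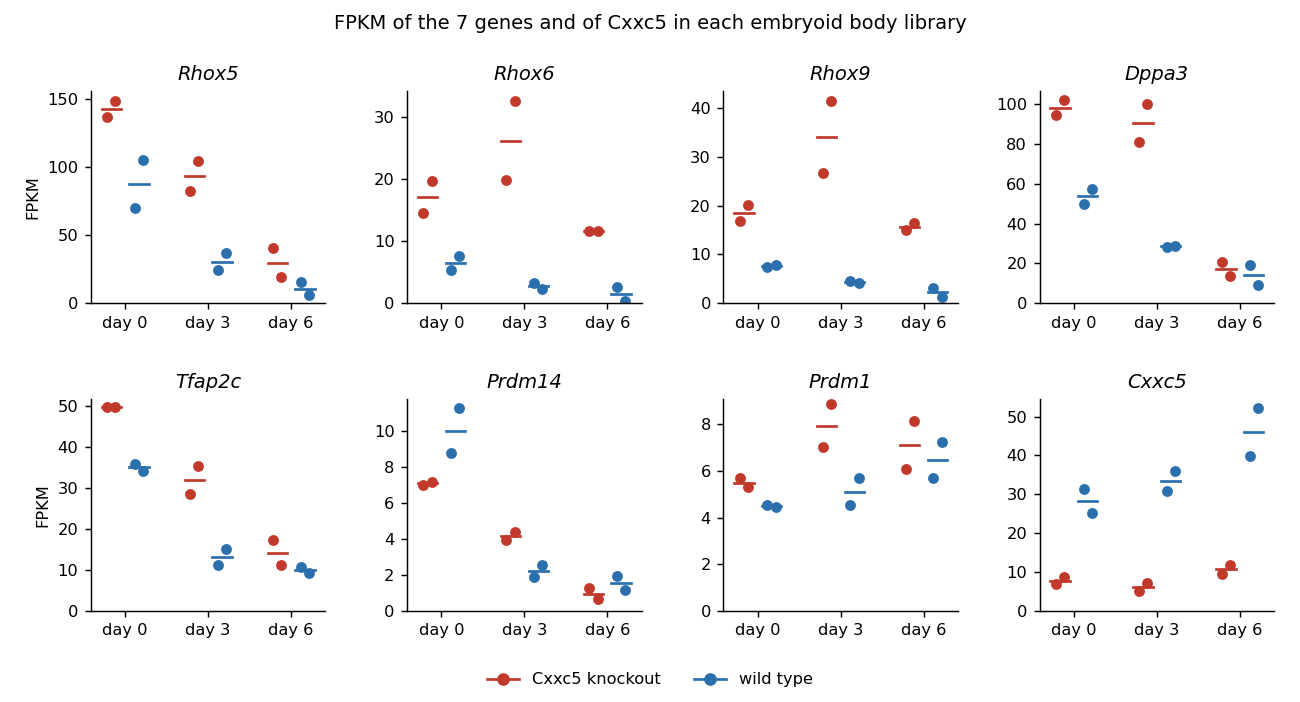
FPKM of the 7 genes and of Cxxc5 in each embryoid body library, with days on the horizontal axis and knockout (red) left of wild type (blue); points are libraries, bars are means of 2, and each vertical axis starts at 0 FPKM. Rhox6 and Rhox9 peak at day 3 in knockout, at up to 32.5 and 41.4 FPKM, and the genotypes separate in every Rhox panel, whereas Dppa3, Prdm14 and Prdm1 overlap at day 6.

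Rhox5, Rhox6 and Rhox9 were the only genes of their cluster with a mean of at least 1 FPKM. The cluster counts 42 entries on chromosome X in RefSeq, in which these take places 29, 30 and 34 in order of position. Of 28 other Rhox genes in the table, 0 had a mean of at least 1 FPKM, 26 were below 1 FPKM in every library and 12 were listed at 0 in all of them. Only Rhox1 and Rhox8 reached 1 FPKM in any library. Rhox1, first by position, had 1.34 and 1.80 FPKM in knockout and 1.37 and 1.87 FPKM in wild type at day 0, which overlap. At day 3 it had 1.11 and 1.42 FPKM in knockout and 0.216 and 0.440 FPKM in wild type. Rhox8, which lies between Rhox6 and Rhox9, had 0.947 and 0.634 FPKM in knockout and 0.762 and 0.597 FPKM in wild type at day 3, which overlap. Outside the cluster, the tested genes within 500 kb of the Rhox members were Zbtb33, for the methyl-CpG binding protein Kaiso, and Tmem255a, with log2 differences between knockout and wild type of -0.15 and -0.33 at day 3 and of -0.55 and -1.32 at day 6. Over the other 438 tested genes of the X chromosome the median log2 difference was 0.01 at day 0, -0.04 at day 3 and -0.11 at day 6.

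**Figure D2:**
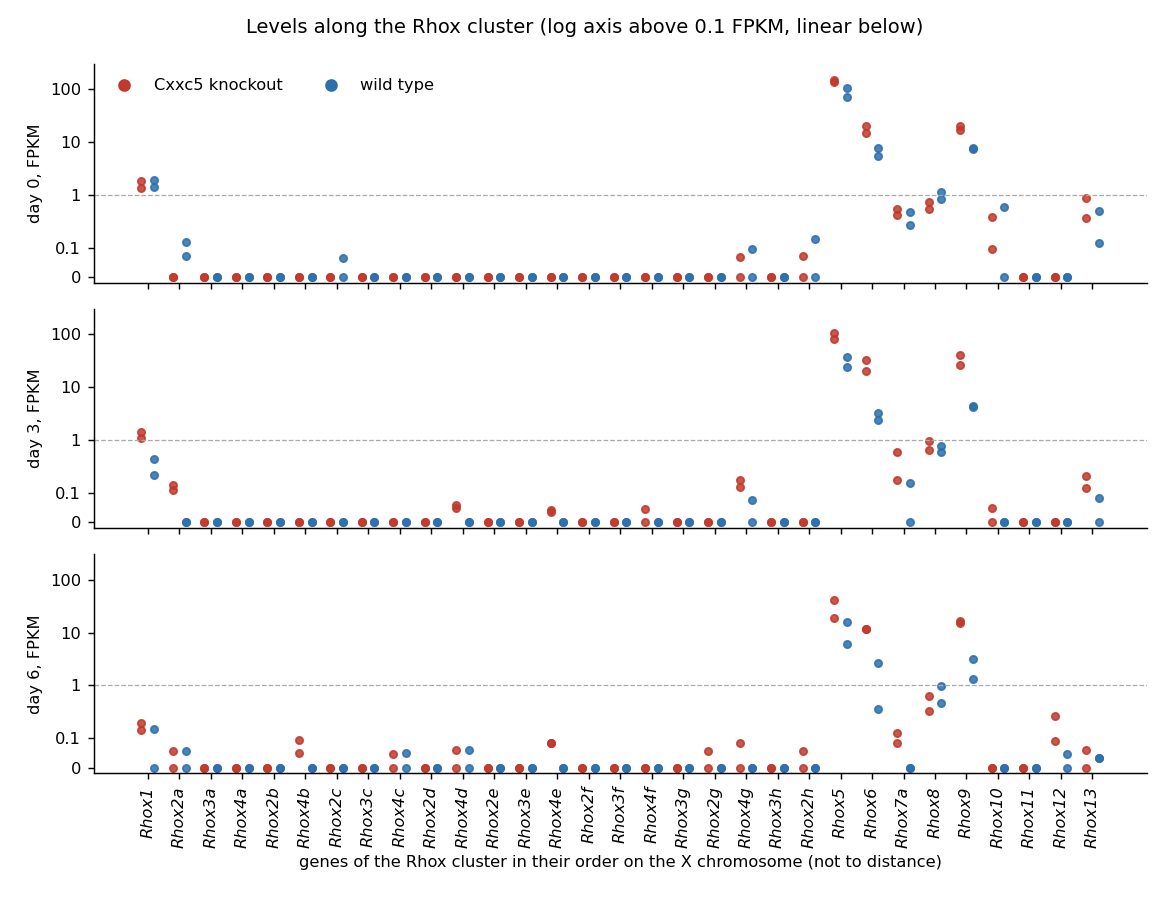
FPKM of the 31 Rhox genes of the table in each library, ordered along the X chromosome without regard to distance, for days 0, 3 and 6 from top to bottom; red points are knockout and blue points wild type libraries, 2 each, and the axis is logarithmic above 0.1 FPKM. Rhox5, Rhox6 and Rhox9 stand above the dashed line at 1 FPKM, except Rhox6 in 1 wild type library at day 6 (0.351 FPKM), and the genes to their left lie near 0 apart from Rhox1.

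Among the germ cell precursor factors, Dppa3 and Tfap2c were above both wild type libraries in both knockout libraries at days 0 and 3, and at day 6 Dppa3 overlapped with wild type while Tfap2c did not. Dppa3, which encodes a protector of DNA methylation, had 94.3 and 102 FPKM in knockout and 49.6 and 57.6 FPKM in wild type at day 0. At day 3 it was at 80.9 and 100.2 FPKM in knockout, still 92.3% of its day 0 mean, and at 28.3 and 29.0 FPKM in wild type, 53.4% of its day 0 mean. At day 6 the libraries overlapped, with 20.9 and 13.6 FPKM in knockout and 19.15 and 9.12 FPKM in wild type. Tfap2c, a transcription factor of germ cells and trophoblast, had 49.6 and 49.7 FPKM in knockout and 35.9 and 34.1 FPKM in wild type at day 0. At day 3 the values were 28.6 and 35.2 FPKM in knockout and 11.1 and 15.1 FPKM in wild type. At day 6 they were 17.2 and 11.2 FPKM in knockout and 10.6 and 9.16 FPKM in wild type, so that the lower knockout library exceeded the higher wild type library by 1.06 times. The other genes of the family were near 0: Tfap2b, Tfap2d and Tfap2e stayed below 1 FPKM in every library, and Tfap2a had at most 1.49 FPKM, in wild type replicate 2 at day 6.

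The PR domain factors Prdm14 and Prdm1 had the lowest means of the 7 genes over the 12 libraries, and Prdm14 declined with time in both genotypes while Prdm1 did not. Prdm14, which in mouse ESCs restrains FGF signalling and the de novo DNA methyltransferases, had 7.03 and 7.17 FPKM in knockout and 8.79 and 11.3 FPKM in wild type at day 0. At day 3 it had 3.96 and 4.40 FPKM in knockout and 1.86 and 2.53 FPKM in wild type. At day 6 it had 1.28 and 0.637 FPKM in knockout and 1.91 and 1.17 FPKM in wild type, the lowest resting on an estimated 46.2 reads. Its knockout libraries were thus below the wild type libraries at day 0, above them at day 3 and overlapping with them at day 6. Prdm1, also named Blimp1, a repressor that is among the first factors of germ cell precursors, had 5.69 and 5.32 FPKM in knockout and 4.53 and 4.45 FPKM in wild type at day 0. At day 3 it had 7.02 and 8.88 FPKM in knockout and 4.52 and 5.69 FPKM in wild type, and at day 6 6.08 and 8.15 FPKM in knockout and 5.70 and 7.24 FPKM in wild type. Prdm1 therefore stayed within a factor of 1.56 between the genotype means on every day.

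Day 3 is the contrast on which the genes were picked, so its differences are given without a test. On the log2(FPKM + 1) scale, used here for every difference and understating changes of low genes, knockout minus wild type was 2.82 for Rhox6, 2.68 for Rhox9, 1.62 for Dppa3, 1.60 for Rhox5, 1.23 for Tfap2c, 0.70 for Prdm14 and 0.55 for Prdm1. In FPKM, mean Rhox6 in knockout was 9.44 times that in wild type. Both knockout libraries lay above both wild type libraries for 7 of the 7 genes, against 29% of all tested genes, and 5 of the 7 differed by at least 1, against 1.08% of all tested genes. Nothing is read from these shares, since the choice of the genes used them.

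At day 0, 6 of the 7 genes were higher in both knockout libraries than in both wild type libraries (24.3% of all tested genes). Prdm14 was lower in both (25.5% of all tested genes). Libraries of this day were not used for the choice. The labels trace each genotype to 2 ESC lines, though, so days 0 and 6 are not independent of a choice made at day 3. By limma over all 12472 genes, with Benjamini-Hochberg adjustment and a threshold of 0.05, 0 of the 7 were called, against 0.369% of all tested genes. At an unadjusted p under 0.05 the number was 4 of 7, Rhox6, Rhox9, Dppa3 and Tfap2c, against 14.7% of all tested genes. The limma difference of Rhox9 was 1.17 (SE 0.26, adjusted p = 0.0985) and that of Rhox6 was 1.28 (SE 0.42, adjusted p = 0.212). Dppa3 differed by 0.86 (SE 0.30, adjusted p = 0.23), Rhox5 by 0.72 (SE 0.45, adjusted p = 0.512), Tfap2c by 0.49 (SE 0.20, adjusted p = 0.295), Prdm1 by 0.24 (SE 0.16, adjusted p = 0.541) and Prdm14 by -0.44 (SE 0.20, adjusted p = 0.363), all by limma. The median over the 7 was 0.72, beside a median of 0.00 over all genes. The replicates of day 6 were less alike (r of 0.974 in knockout and 0.966 in wild type) than those of days 0 and 3 (0.978 to 0.985), and they share the estimate of spread. Without the day 6 libraries limma called 2 of the 7 higher at day 0, Rhox9 (adjusted p = 0.0398) and Dppa3 (adjusted p = 0.0287). Calls over all 12472 genes also grew in that fit, to 360, of which 217 were higher, against 46 with all libraries. Without wild type replicate 1 or 2 of day 6 alone the Rhox9 difference stayed at 1.17. That was fixed beforehand, because the day 0 means do not use those libraries and only the estimate of spread changes.

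At day 6, 3 of the 7 genes were called higher in knockout than in wild type, and these were the 3 Rhox genes. That is beside 34.1% of all tested genes called in either direction and 17.9% called higher. At an unadjusted p under 0.05 there were 4 of 7, with Tfap2c added, against 46.4% of all tested genes. Rhox9 averaged 15.7 ± 0.963 FPKM in knockout and 2.21 ± 1.26 FPKM in wild type (SD, n = 2 each), a limma difference of 2.43 (SE 0.26, adjusted p = 5.41e-04). Rhox6 averaged 11.67 ± 0.00297 FPKM in knockout and 1.51 ± 1.63 FPKM in wild type (SD, n = 2 each), a limma difference of 2.51 (SE 0.42, adjusted p = 0.00366). Both stayed called in each of 12 fits without 1 library, with differences of 2.02 to 2.85 for Rhox9 and of 1.79 to 3.23 for Rhox6. Rhox5 averaged 29.9 ± 15.1 FPKM in knockout and 10.8 ± 6.92 FPKM in wild type (SD, n = 2 each), a limma difference of 1.43 (SE 0.45, adjusted p = 0.0402). That call was close to the threshold and ended in 10 of 12 fits without 1 library. Without knockout replicate 1 of day 6 the Rhox5 difference was 0.91 (limma adjusted p = 0.198), without wild type replicate 2 of day 6 it was 0.79 (limma adjusted p = 0.185), and without any 1 library of days 0 or 3 it stayed at 1.43 with a limma adjusted p between 0.0527 and 0.066. When the 4 libraries of day 6 were fitted on their own, limma called 0 of the 7, with adjusted p = 0.0853 for Rhox9, 0.115 for Rhox6 and 0.226 for Rhox5, and 20 of all 12472 genes.

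The germ cell precursor factors were not called at day 6. By limma Tfap2c differed by 0.46 (SE 0.20, adjusted p = 0.103), Dppa3 by 0.33 (SE 0.30, adjusted p = 0.419), Prdm1 by 0.11 (SE 0.16, adjusted p = 0.605) and Prdm14 by -0.38 (SE 0.20, adjusted p = 0.172). Single libraries weighed on these values. Without knockout replicate 2 of day 6 Tfap2c was called higher (0.74, limma adjusted p = 0.0368), and without wild type replicate 1 of day 6 Dppa3 was called higher (0.82, limma adjusted p = 0.042), while without wild type replicate 2 of day 6 Dppa3 was at -0.17 (limma adjusted p = 0.582). Both knockout libraries were above both wild type libraries at day 6 for 4 of the 7 genes, the 3 Rhox genes and Tfap2c, against 34.4% of all tested genes. The same 4 genes were so separated on days 0 and 6 together, as were 10.8% of all tested genes, and with day 3 counted in as well they were so on all 3 days, as were 6.77% of all tested genes.

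**Figure D3:**
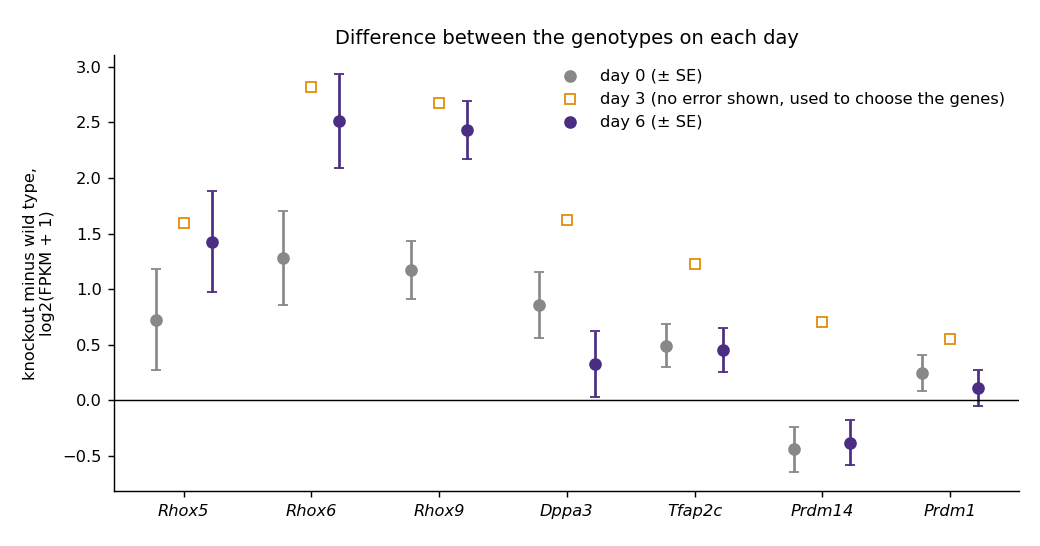
Knockout minus wild type on the log2(FPKM + 1) scale for each of the 7 genes at days 0 (grey), 3 (open squares) and 6 (purple); bars are the limma SE, and day 3 is shown without error because the genes were picked on it. Rhox6 and Rhox9 stand at 2.82 and 2.68 at day 3 and at 2.51 and 2.43 at day 6, Dppa3 stands at 1.62 at day 3 and 0.33 at day 6, and Prdm14 lies below 0 at days 0 and 6.

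Between day 0 and day 6 Rhox6 and Rhox9 kept most of their mean level in knockout and lost most of it in wild type. The interaction that tests this contrast, given below, was not called for either gene. Rhox5, Dppa3, Tfap2c and Prdm14 were lower at day 6 in both genotypes. In knockout 4 of the 7 genes fell, beside 73% of all tested genes called in either direction, 37.5% lower and 35.5% higher. By limma the changes in knockout were -2.47 for Dppa3 (adjusted p = 8.47e-05), -2.31 for Rhox5 (adjusted p = 0.00155), -2.07 for Prdm14 (adjusted p = 2.56e-05) and -1.77 for Tfap2c (adjusted p = 5.33e-05). Rhox6 (-0.50, limma adjusted p = 0.306), Rhox9 (-0.22, limma adjusted p = 0.467) and Prdm1 (0.31, limma adjusted p = 0.115) did not pass in knockout. Without knockout replicate 1 of day 6 Prdm1 was called higher (0.49, limma adjusted p = 0.0389). At day 6 knockout embryoid bodies held 84.9% of their day 0 mean of Rhox9, 68.1% of Rhox6 and 20.9% of Rhox5.

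In wild type 6 of the 7 genes fell and Prdm1 rose between day 0 and day 6, beside 67% of all tested genes called, 35.4% lower and 31.5% higher. By limma the changes in wild type were -3.01 for Rhox5 (adjusted p = 4.02e-04), -2.13 for Prdm14 (adjusted p = 3.02e-05), -1.93 for Dppa3 (adjusted p = 4.56e-04), -1.73 for Rhox6 (adjusted p = 0.00589), -1.73 for Tfap2c (adjusted p = 8.1e-05) and -1.48 for Rhox9 (adjusted p = 9.9e-04). Wild type embryoid bodies at day 6 held 29.0% of their day 0 mean of Rhox9, 23.2% of Rhox6 and 12.4% of Rhox5. Prdm1 rose by 0.44 (limma adjusted p = 0.0394), a call that ended in 5 of 12 fits without 1 library. It was lost without any 1 of the 4 day 0 libraries (limma adjusted p = 0.0594, 0.0594, 0.106 and 0.123 for knockout replicates 1 and 2 and wild type replicates 1 and 2) and without wild type replicate 2 of day 6 (0.29, limma adjusted p = 0.222). The Rhox6 call in wild type ended in a fit of the 4 libraries compared (limma adjusted p = 0.0677). Changes over time and differences between the genotypes share libraries, so they are not separate evidence.

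**Figure D4:**
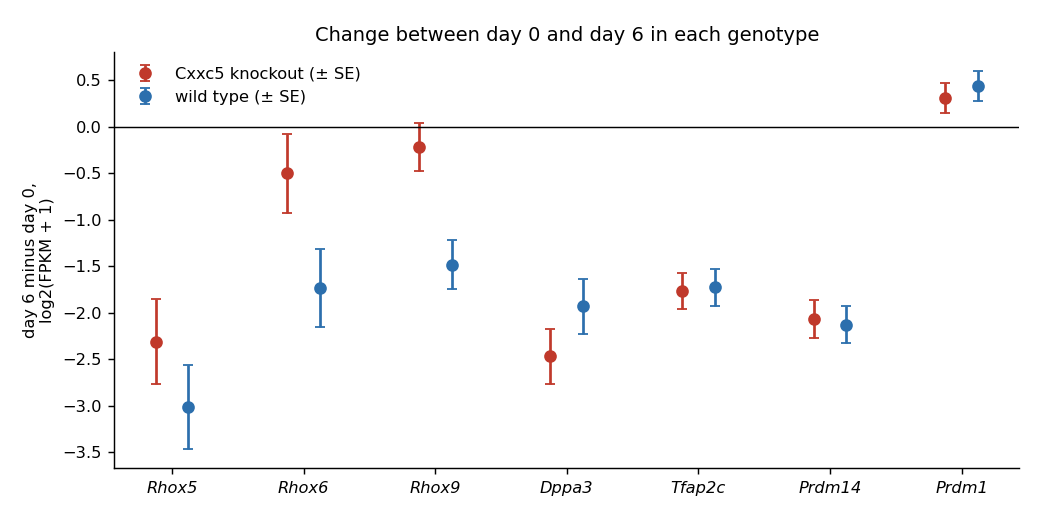
Day 6 minus day 0 on the log2(FPKM + 1) scale for each gene, in knockout (red, left) and wild type (blue, right), with bars for the limma SE. The 4 genes Rhox5, Dppa3, Tfap2c and Prdm14 lie below -1.7 in both genotypes, Rhox6 and Rhox9 lie at -0.50 and -0.22 in knockout and at -1.73 and -1.48 in wild type, and Prdm1 lies above 0.

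Whether the genotype difference itself changed between day 0 and day 6 was tested as an interaction, and limma called 0 of the 7 genes, beside 12.2% of all tested genes, 5.28% with a higher and 6.9% with a lower knockout minus wild type value at day 6 than at day 0. At an unadjusted p under 0.05 there was 1 of 7, Rhox9, against 32.1% of all tested genes. The Rhox9 difference was larger at day 6 than at day 0 by 1.26 (SE 0.37, limma adjusted p = 0.0579), the Rhox6 difference by 1.23 (limma adjusted p = 0.191) and the Rhox5 difference by 0.70 (limma adjusted p = 0.477), while the value for Dppa3 was -0.54 (limma adjusted p = 0.404). For Tfap2c (-0.04), Prdm14 (0.06) and Prdm1 (-0.13) the limma adjusted p was at least 0.731. The Rhox result moved with 1 library. Without wild type replicate 1 of day 6, the one with the higher Rhox6 and Rhox9 of its group, limma called Rhox9 (1.67, adjusted p = 0.0199) and Rhox6 (1.95, adjusted p = 0.0352), and without wild type replicate 2 of day 6 it called Dppa3 (-1.03, adjusted p = 0.0403).

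Across the 12 libraries Rhox6 and Rhox9 varied together (Pearson's r of 0.988 of log2 values), which is a description, since the libraries share 3 days and 2 genotypes and the paralogues share reads. Rhox5 varied with Dppa3 (0.951) and Tfap2c (0.954) more than with Rhox6 (0.787) or Rhox9 (0.738), while Prdm14 and Rhox9 were at 0.304 and Prdm14 and Prdm1 at -0.493. The genes most like each member over the 12 libraries were taken from all tested genes. For Dppa3 they were Phf19, for a Polycomb-associated protein (0.995), Ckb, for brain creatine kinase (0.994), and the autophagy receptor gene Calcoco2 (0.984). Phf19 had 7.98 and 10.1 FPKM in knockout and 2.83 and 3.06 FPKM in wild type at day 3, against 2.10 and 1.36 FPKM in knockout and 2.11 and 0.9497 FPKM in wild type at day 6. For Rhox5 they were the sialyltransferase gene St6galnac2 (0.974), Nrde2 (0.964) and Alpl, for tissue-nonspecific alkaline phosphatase (0.958). After each other, Rhox6 and Rhox9 were most like the kinesin gene Kif13a (0.938 and 0.944), with Spr, for sepiapterin reductase (0.933), next for Rhox6 and Ppp1r14a, for an inhibitor of myosin phosphatase (0.922), next for Rhox9. Ppp1r14a had 18.3 and 17.4 FPKM in knockout and 10.3 and 11.3 FPKM in wild type at day 0. These values are a description, since Ppp1r14a was chosen for its likeness to Rhox9 over the same libraries. Tfap2c was most like D230025D16Rik (0.987), the carnitine-acylcarnitine carrier gene Slc25a20 (0.979) and Ttyh2 (0.972). Prdm14 was most like Gabarapl2 (0.988), the naive pluripotency gene Tcl1 (0.987) and Camk1d (0.986), and Prdm1 was most like Zbtb10 (0.909), Idua (0.899) and Dctn5 (0.895).

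Other genes known from germ cell precursors were called in both directions at day 6. In a list of 14, all tested, limma called 0 at day 0 (median 0.04, against 0.00 over all genes). At day 6 limma called 2 higher and 3 lower in knockout, beside 17.9% and 16.2% of all tested genes, with a median of -0.14 against 0.02 over all genes. Alpl (0.63, limma adjusted p = 0.0163) and the zinc finger gene Sall4 (0.29, limma adjusted p = 0.0341) were higher in knockout than in wild type at day 6. Lower in knockout were the RNA-binding protein genes Elavl2 (-1.07, limma adjusted p = 0.00472) and Lin28a (-0.31, limma adjusted p = 0.00667) and the pluripotency factor gene Sox2 (-1.36, limma adjusted p = 0.0485). At day 3 the median difference of the list was 0.16, and the RNA-binding protein gene Nanos3, which keeps germ cell precursors alive in mouse, had the highest. Nanos3 had 5.34 and 6.24 FPKM in knockout and 2.12 and 1.59 FPKM in wild type at day 3, against 2.93 and 2.14 FPKM in knockout and 3.28 and 1.13 FPKM in wild type at day 6. Alpl had 52.3 and 58.9 FPKM in knockout and 27.99 and 34.0 FPKM in wild type at day 3, and the receptor gene Kit had 11.5 and 12.3 FPKM in knockout and 6.02 and 8.89 FPKM in wild type. Dnd1, needed for germ cell survival in mouse, was at 3.39 and 4.17 FPKM in knockout and 3.46 and 3.74 FPKM in wild type at day 3, which overlap. Between day 0 and day 6, 10 of the 14 fell in knockout, beside 37.5% of all tested genes, and 11 fell and 1 rose in wild type, beside 35.4% and 31.5%.

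**Figure D5:**
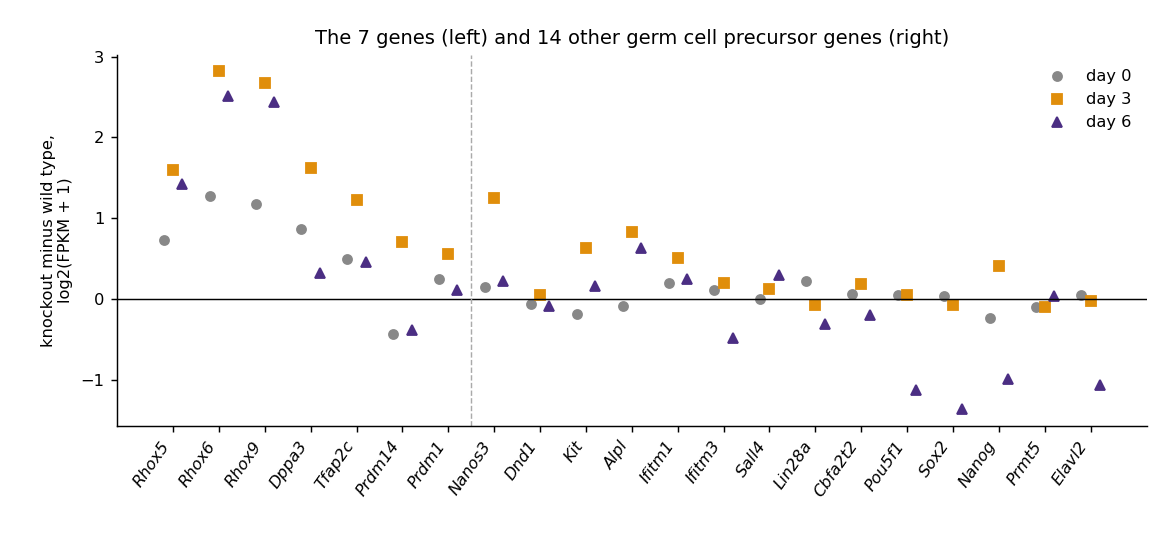
Knockout minus wild type on the log2(FPKM + 1) scale at days 0 (grey circles), 3 (orange squares) and 6 (purple triangles) for the 7 genes, left of the dashed line, and for 14 other germ cell precursor genes, right of it. Nanos3, Alpl and Kit are the highest of the 14 at day 3, at 1.25, 0.83 and 0.63, and Sox2, Pou5f1, Elavl2 and Nanog are the lowest at day 6.

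Genes of the signals that induce germ cell precursors were called in both directions at day 6. Of 13 tested, 4 were called higher and 2 lower in knockout than in wild type at day 6 (median 0.49). The shares over all tested genes were 17.9% and 16.2%, so the list lay not far from the background. At day 0, 0 of the 13 were called, beside 0.369% of all tested genes. The ligand gene Bmp4 had 38.6 and 60.0 FPKM in knockout and 3.10 and 16.7 FPKM in wild type at day 6 (limma difference 2.53, adjusted p = 0.00965). Bmp2 (1.44, limma adjusted p = 0.0477), Wnt3 (1.26, limma adjusted p = 0.0351) and the BMP target Id3 (0.94, limma adjusted p = 0.0374) were also higher in knockout at day 6. Otx2, a transcription factor that opposes entry into the germline in mouse, was lower in knockout at day 6 (-1.04, limma adjusted p = 0.0227). So was Smad5, a signal transducer of BMP receptors (-0.42, limma adjusted p = 0.00194). As an interaction with day limma called 1 of the 13, Otx2, so the others are not shown to differ between days. Genes of later germ cells were lower at day 6 than at day 0 in both genotypes, 11 of 11 tested in each, with medians of -2.52 in knockout and -2.52 in wild type, beside 37.5% of all tested genes called lower in knockout and 35.4% in wild type. Between the genotypes 0 of these 11 were called at day 0. At day 6 the synaptonemal complex genes Sycp1 (-0.92, limma adjusted p = 0.00214) and Sycp3 (-0.84, limma adjusted p = 0.0111) were lower in knockout than in wild type, beside 16.2% of all tested genes. The Prdm family beyond Prdm1 and Prdm14 had 6 tested genes, of which 0 were called at day 0. Prdm6 (2.55, limma adjusted p = 0.0283), Prdm2 (0.24, limma adjusted p = 0.0196) and Prdm10 (0.23, limma adjusted p = 0.0454) were higher in knockout at day 6, beside 17.9% of all tested genes. Of the Dppa genes beyond Dppa3, 3 were tested and 0 were called on either day, and all 3 fell between day 0 and day 6 in both genotypes.

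Markers of other cell types were called at day 6 as well, the day on which the Rhox genes were called. Over all tested genes 17.9% were called higher and 16.2% lower at day 6, and 0.369% were called in either direction at day 0, the shares beside which the counts of these lists stand. Of 9 tested trophoblast genes 7 were called higher in knockout than in wild type at day 6 (median 1.52). The largest differences were those of Hand1 (3.44, limma adjusted p = 0.0379) and Cdx2 (2.20, limma adjusted p = 0.00653). Next came Krt18 (1.69, limma adjusted p = 0.00777) and Plac1 (1.62, limma adjusted p = 0.0182). The summed level of all 14 listed ran from 844 to 1230 FPKM in knockout and from 185 to 522 FPKM in wild type. At day 3 the sums were 102 to 105 FPKM in knockout and 57.5 to 71.3 FPKM in wild type, and at day 0 they were 34.4 to 37.7 FPKM in knockout and 20.9 to 22.1 FPKM in wild type, where 0 were called. The keratin genes Krt8 and Krt18, which other epithelia also express, made up most of the sum. Of the markers that define trophoblast, Tpbpa was listed at 0 in all libraries of days 0 and 3 and had 5.32 and 4.46 FPKM in knockout and 0.355 and 0.0284 FPKM in wild type at day 6. Elf5 stayed at or below 0.180 FPKM and Prl3d1 at or below 0.0978 FPKM in every library. Of 11 tested extraembryonic endoderm genes 5 were called higher in knockout at day 6 (median 0.33). The largest of these differences were for Gata4 (1.70, limma adjusted p = 0.0317) and Gata6 (1.39, limma adjusted p = 0.0285). Col4a1 (1.10, limma adjusted p = 0.0206) and Sparc (0.63, limma adjusted p = 0.0136) came next. The 6 not called went both ways. Sox17 was at 0.47, Sox7 at 0.33, Dab2 at 0.23, Lama1 at 0.06, Cubn at -0.02 and Foxa2 at -0.63. The extraembryonic endoderm list summed to 263 to 393 FPKM in knockout and 158 to 237 FPKM in wild type. Of 10 naive pluripotency genes 0 were called at day 0 (median -0.38). Klf5 (0.50, limma adjusted p = 0.0224) and Tbx3 (2.35, limma adjusted p = 0.0149) were higher in knockout at day 6, while the median of the list was -0.23 and 3 of its 10 differences were above 0. The list summed to 142 to 149 FPKM in knockout and 84.99 to 121 FPKM in wild type, and without Tbx3, a split chosen after its values were seen, to 66.7 to 85.9 FPKM in knockout and 55.7 to 116 FPKM in wild type, which overlap. Of 5 tested genes of feeder fibroblasts 2 were called higher in knockout at day 6, Twist2 (1.51, limma adjusted p = 0.0263) and Fbn1 (1.08, limma adjusted p = 0.0375). The 3 not called went both ways, with Col1a1 at 1.28, Col1a2 at -0.04 and Thy1 at -0.38. The list of 9 summed to 17.1 to 31.9 FPKM in knockout and 9.82 to 15.3 FPKM in wild type. Whether cells of these types were present, and their part in the Rhox differences, was not tested. Among the DNA methylation enzymes, which are named because the Rhox genes are silenced by methylation, 0 of 9 were called at day 0. At day 6 Dnmt1 was higher (0.31, limma adjusted p = 0.0041) and Tet1 lower (-0.49, limma adjusted p = 0.0394) in knockout than in wild type.

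In the separate table of ESCs the order of the levels was close to that of day 0 embryoid bodies, but the log2 differences between the genotypes were smaller, with no test, for Rhox5, Rhox6, Rhox9, Dppa3, Tfap2c and Prdm1. This table holds 3 entries per condition, against 2 labelled ESC libraries per genotype, so it is used as 1 level per condition, with no error and no test. It was normalized apart from the embryoid body table. Rhox5 was at 191 FPKM in the knockout condition and 166 FPKM in the wild type condition, Rhox6 at 31.6 FPKM in knockout and 20.8 FPKM in wild type, and Rhox9 at 22.9 FPKM in knockout and 17.6 FPKM in wild type. Dppa3 was at 51.1 FPKM in knockout and 47.1 FPKM in wild type, Tfap2c at 34.5 FPKM in knockout and 28.6 FPKM in wild type, and Prdm1 at 4.36 FPKM in knockout and 3.84 FPKM in wild type. Prdm14 was lower in knockout, at 4.25 FPKM, than in wild type, at 6.66 FPKM. Cxxc5 was at 5.13 FPKM in knockout and 24.1 FPKM in wild type. Over 11155 genes with a mean of at least 1 FPKM in that table, the central 90% of log2(FPKM + 1) differences lay between -0.23 and 0.24. Rhox6 (0.58), Rhox9 (0.36) and Tfap2c (0.26) lay above that span, Prdm14 (-0.55) below it, and Rhox5 (0.20), Prdm1 (0.15) and Dppa3 (0.12) within it. Rhox1 was at 1.72 FPKM in knockout and 1.33 FPKM in wild type, and the other listed Rhox genes stayed below 0.6 FPKM in both conditions.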

How the data were processed

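RNA-seq of 12 embryoid body libraries (Cxxc5 knockout and wild type, days 0, 3 and 6, 2 libraries each) was used as a table of FPKM values that the authors deposited. Per the labels' protocols, the single-end reads had 75 bases, Trim Galore 0.4.1 removed adapters and TopHat2 2.0.13 mapped them to mm10. The submitters' processing notes also list Cufflinks 2.2.1, Cuffdiff and HTSeq 0.6.1 without a role. Annotation, strandedness and the handling of reads shared by paralogues are not given. All 92 spike-in rows were listed at 0, so no scaling by them was possible. A second deposited table of FPKM values held ESCs, with 6 entries for 4 labelled libraries. These could not be matched to libraries and were averaged per condition.

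The members and the gene lists were chosen with earlier results of these data known, with day 3 in view. Day 3 was therefore described and not tested. In R 4.3.3, limma 3.58.1 was fitted to log2(FPKM + 1), with 1 mean per genotype and day over 12 libraries, a variance trend, two-sided tests and Benjamini-Hochberg adjustment over the 12472 genes that averaged at least 1 FPKM. The day 3 libraries entered only the estimate of spread. With 2 libraries per group, p-values measure the spread between these lines and cultures. The procedure was tested on simulated data with independent normal noise, the same SD for a gene in every group and no effect of line. That test therefore does not cover unequal spread between groups or differences between lines. Depth was estimated from the FPKM of genes with 1 read, taken to be the commonest small value among genes with a single GENCODE transcript. FPKM gives no counts, so no counting interval is given. Alternatives were a pseudocount of 0.1, no filter, quantile normalization, the replicate number as a block, fits of the libraries compared alone, a fit without day 6, each library left out in turn and, added after seeing the data, library weights per group. Positions, promoters and transcripts were read with Python 3.11.15. Named genes were the 7, Cxxc5, other Rhox genes with a mean of at least 1 FPKM, germ cell precursor genes, and the 3 genes most correlated with each member. From each list the genes past the threshold between the genotypes at day 6 were added, at most 4 in each direction, largest difference first. Rhox1, Rhox8, the other Tfap2 genes and the neighbours of the Rhox genes are named outside this rule. So are Krt8 and the trophoblast, extraembryonic endoderm and feeder fibroblast markers that did not pass.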

Additional observations from a re-analysis of the deposited data

Results flagged for a closer look

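Values are knockout minus wild type on the log2(FPKM + 1) scale at day 6 less that at day 0, by limma. For 4 genes of the germ cell lists this interaction passed the threshold, so that the genotype difference was lower at day 6 than at day 0. They were 2 of 14 tested precursor genes, 1 of 13 tested induction signal genes and 1 of 11 tested later germ cell genes. Over all tested genes 6.9% were called lower and 12.2% in either direction, so nothing particular to these lists is read from the count. The RNA-binding protein gene Lin28a had a value of -0.53 (adjusted p = 0.00962), with 162 and 153 FPKM in knockout and 199 and 192 FPKM in wild type at day 6, against 151 and 153 FPKM in knockout and 124 and 137 FPKM in wild type at day 0. Elavl2 had a value of -1.12 (adjusted p = 0.0353), Otx2 of -1.81 (adjusted p = 0.0263) and the meiotic gene Sycp1 of -0.72 (adjusted p = 0.0457). Prdm14 differed in direction between days: both knockout libraries were below both wild type libraries at day 0 and above them at day 3, a shift of 1.14 that was not tested, since day 3 was used to choose the genes.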

How the results depend on the processing

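The count of called genes among the 7 changed with the libraries in the fit in each of the 5 comparisons. At day 0 it was 0 and became 2 without the day 6 libraries, and it ran from 0 to 1 over fits without 1 library. At day 6 it was 3 and became 0 with the 4 day 6 libraries alone, and it ran from 2 to 4 over fits without 1 library. From day 0 to day 6 it was 4 in knockout, with 4 to 5 over fits without 1 library, and 7 in wild type, with 6 to 7 over such fits and 5 with the 4 libraries compared. For the interaction it was 0, became 1 with quantile normalization (Rhox9, 1.45, limma adjusted p = 0.0364), and ran from 0 to 2 over fits without 1 library. Some small values changed sign. For the interaction, Prdm14 was at -0.18 with a pseudocount of 0.1, and over fits without 1 library it ran from -0.18 to 0.30, Prdm1 from -0.31 to 0.057 and Tfap2c from -0.32 to 0.25, none called. For knockout against wild type at day 6, Prdm1 ran from -0.070 to 0.30, not called, and Dppa3 from -0.17 to 0.82, called in 1 of the 12 fits, that without wild type replicate 1 of day 6. The cause of these changes was not tested.

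With the replicate number as a block, the Rhox5 difference of day 6 stayed at 1.43 with limma adjusted p = 0.0521, and the other member calls kept their side of the threshold. Deviations of same-numbered libraries correlated at -0.0807 to 0.243, with 1 of 15 pairs of groups over 0.1. That pair, at 0.243, was knockout and wild type at day 6, the contrast in which the Rhox genes were called. The labels do not tie a number to a line, so the numbers were not taken to pair libraries. Over all genes the block moved the calls to 20 at day 0, against 46. The replicate number as a block within each genotype moved the interaction calls to 923, against 1518. The calls of all genes ran over fits without 1 library from 8 to 184 at day 0, from 2021 to 4868 at day 6 and from 307 to 3094 for the interaction, and the 4 libraries alone gave 8 at day 0 and 20 at day 6, with 235 for the interaction from 8 libraries. Other counts were 111 at day 0 with a pseudocount of 0.1, 360 at day 0 without day 6 and, with library weights per group, 122 at day 0, 2011 at day 6 and 737 for the interaction. No filter and library weights also ended the day 6 call of Rhox5 (limma adjusted p = 0.0679 and 0.0941), and no filter, quantile normalization, the 4 libraries compared and library weights that of Prdm1 over time in wild type (limma adjusted p = 0.0634, 0.216, 0.0733 and 0.155). Depth limits Rhox6 most, at an estimated 9.82 reads in 1 library.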
